A study of Zea mays with 6 samples.

Results

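Mature maize pollen carried 101 well-expressed gene models whose transcript level was higher in every library from heat-treated plants than in any control library. They were chosen by the heat and control values themselves. A member had at least 5 TPM in each of the 3 control libraries, and its lowest heat value was at least 1.5 times its highest control value. TPM corrects the reads of a gene for its length and for the total of the library, so levels below can be compared between genes. Of 39625 gene models, 3757 had at least 5 TPM in each control, and 107 of these (2.85%) met both thresholds. A list of 10 named genes was set aside by the rule, 6 of which met the thresholds (TIFY20, TIFY4, TIFY28, TIFY24, ivr2 and eIF-4A), and the remaining 101 are described here. Since the heat and control values chose the members, their values in that contrast are given as a description, with no test.

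The pollen came from the inbred line B73, which was the genotype of both groups, and each group had 3 libraries that the labels call biological replicates. Plants of the heat group had reached the tetrad stage of pollen development when they were put at 35 °C in the day and 25 °C at night for 48 h. Control plants were kept at 25 °C in the day and 21 °C at night, and humidity was 60% for both groups. All plants finished pollen maturation in the greenhouse. The libraries therefore describe pollen collected after the treatment had ended. How many plants gave pollen to a library was not given in the sources used here.

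The tetrad is the group of joined microspores that meiosis leaves behind. Each microspore later divides to give a vegetative cell, which grows the pollen tube, and the sperm cells that it carries. Mature pollen is known for a transcriptome dominated by few genes and for stored mRNA that is used when the grain germinates, a step with a high demand for ATP from mitochondria.

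The libraries held 19086616 to 28640667 reads, rebuilt from the TPM values, and 8168 to 8607 gene models at 1 TPM or more. Summed TPM of 9 gene models with pollen marker names lay between 38500 and 40490 in the controls and between 38840 and 41600 in heat. Single markers differed both ways. The mean was higher in heat for PRO1 (2262 to 2851 TPM), PRO2 (7183 to 7894 TPM) and PRO3 (2178 to 2729 TPM). It was also higher for rop2 (176.0 to 211.5 TPM) and hap2 (6.856 to 7.415 TPM), and nearly the same for mgs1 (18390 to 18440 TPM). It was lower for C5 (8941 to 7541 TPM), MCK1 (413.3 to 348.0 TPM) and CDPK1 (0.0285 to 0 TPM). Among the 8 pollen marker models tested, limma called 3 higher and 2 lower in heat at an adjusted p under 0.05. Over all tested genes the shares were 13.0% and 7.15%. Differences of the other pollen markers were not called. Of 9 leaf marker models, 8 stayed under 1 TPM in every library, 1 of them at 0 throughout. Of 5 tapetum and anther wall models, ocl4 was at 0, and their summed level was 2.66 to 3.38 TPM in the controls and 4.02 to 4.49 TPM in heat, with no overlap. Of the 4 detected, ms32 was higher in heat (mean 1.62 TPM in the controls, 3.17 TPM in heat), while the means of ms26 (1.254 and 0.886 TPM), ms8 (0.197 and 0.162 TPM) and ms23 (0.0255 and 0 TPM) were not. The part of these anther wall transcripts in the members' values was not tested. In bulk pollen, fewer cells of a type and less RNA per cell cannot be told apart.

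The members' mean control level ran from 5.53 to 465.1 TPM with a median of 17.8, and their mean heat level from 11.1 to 756.6 TPM with a median of 41.6. The ratio of the group means had a median of 2.03 and ran from 1.58 to 6.97. It lay between 1.5 and 2 in 44 members, between 2 and 3 in 44, and at 3 or more in 13. Most members thus differed by less than 3-fold, with a short tail of larger differences. On the log2(TPM + 1) scale the median difference was 1.00 among the members and 0.04 over the 8615 genes tested. Across those genes, limma called 1123 (13.0%) higher and 616 (7.15%) lower in heat at an adjusted p under 0.05. Under quantile normalization the split turned to 869 higher and 957 lower. Heat 3 alone of the heat libraries shared lanes with the controls. Counts with lane as a covariate thus rest on that library alone against the controls and are not used here. All 101 members were tested and were among the genes called higher, which the choice of members fixes.

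**Figure D1:**
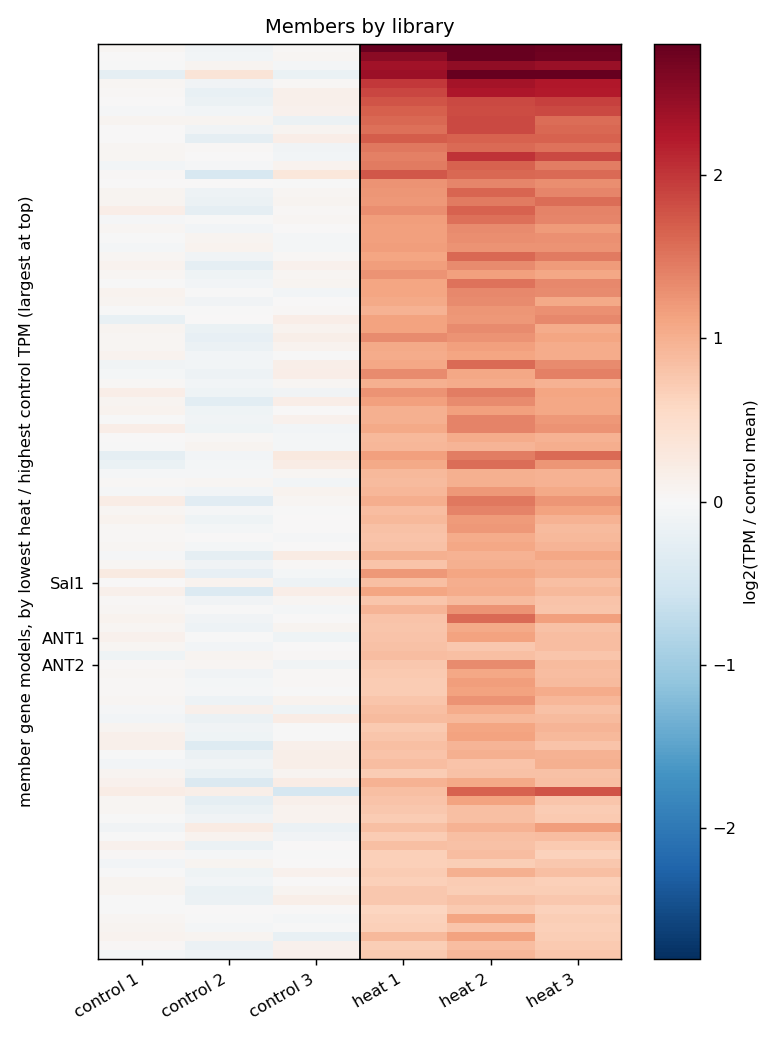
Colour gives log2 of TPM over the gene's own control mean for the 101 members (one line each, ordered by lowest heat over highest control value) in the 3 control and 3 heat libraries. The control columns lie near 0, the heat columns are all above 0, and the heat 2 column is the darkest for most members.

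Together the members made up a small share of the pollen transcriptome, and that share was about doubled in heat. Their summed level was 4283, 4101 and 4232 TPM in controls 1 to 3 and 8117, 9414 and 8622 TPM in heat libraries 1 to 3. That is 0.410% to 0.428% of all TPM in the controls and 0.812% to 0.941% in heat, a 2.07-fold difference between the group means. The summed gain was 4512 TPM, of which the 5 members with the largest gains gave 26.8%. These were GRMZM2G487322 (359.1 TPM), GRMZM2G323558 (291.5 TPM), GRMZM2G084440 (197.8 TPM), GRMZM2G172829 (188.1 TPM) and ANT1 (170.6 TPM). The gain was thus spread over many genes.

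**Figure D2:**
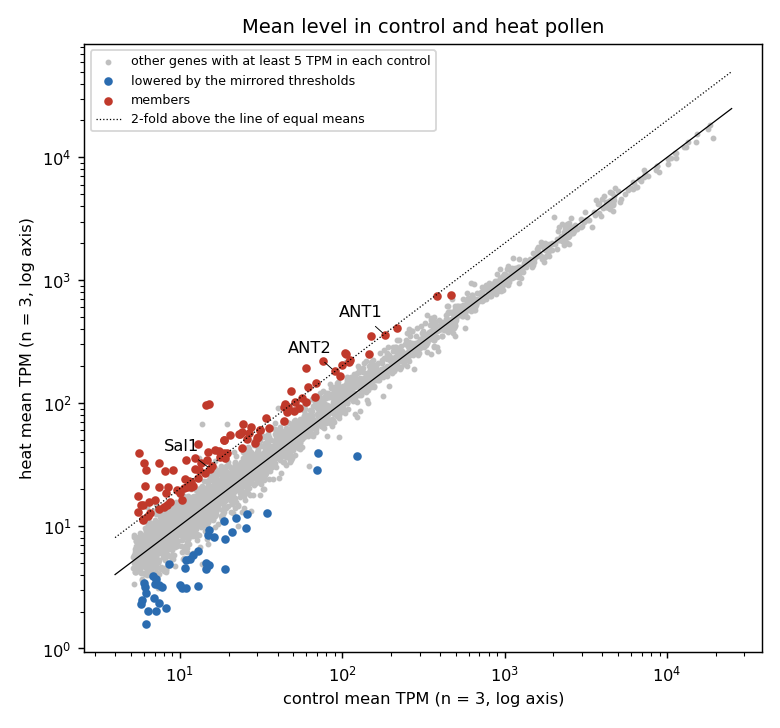
Each point is a gene with at least 5 TPM in each control, placed by its mean control TPM and mean heat TPM (3 libraries each, log axes). Members are red, genes lowered by the mirrored thresholds are blue, and grey holds all others, among them the 6 named genes set aside. No member has a control mean above 465.1 TPM, whereas other genes reach 19330 TPM.

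Only 3 members have a gene symbol, as distinct from a locus or clone number, in the RefSeq gene table, and a pair of them belong to the same family. ANT1 and ANT2 are named as adenine nucleotide translocators, carriers of the inner mitochondrial membrane that exchange ADP from the cytosol for ATP made in the matrix. ANT1 (GRMZM5G837108, also ANT-G1 or MANT1) measured 199.3, 183.6 and 171.2 TPM in controls 1 to 3 and 323.2, 405.0 and 337.7 TPM in heat libraries 1 to 3. Its mean was 184.7 ± 14.1 TPM in the controls and 355.3 ± 43.6 TPM in heat (SD, n = 3 each), a 1.92-fold difference. ANT2 (GRMZM2G135186, also ANT-G2 or MANT2) measured 92.3, 93.9 and 83.9 TPM in the controls and 151.6, 224.6 and 166.6 TPM in heat. Its mean was 90.0 ± 5.35 TPM in the controls and 180.9 ± 38.6 TPM in heat, a 2.01-fold difference. Both carriers had their highest value in heat 2 and their lowest heat value in heat 1. In neither did the groups overlap, which the rule fixes for every member. How reads that map to both copies were counted was not given in the sources used here, so the split between the pair is uncertain to that extent.

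Sal1 (GRMZM2G117935), named for the extra aleurone layers of its kernel mutant, measured 15.7, 16.7 and 14.1 TPM in the controls and 27.9, 31.1 and 27.9 TPM in heat. Its mean was 15.5 ± 1.29 TPM in the controls and 29.0 ± 1.87 TPM in heat, a 1.87-fold difference. The groups did not overlap, as the rule requires, and all heat values lay within a narrow range.

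The ADP/ATP carriers were set beside other genes with names of mitochondrial carriers and energy enzymes, a list put together after the values had been seen. The list went by name alone, and the place of the products in the cell was not checked. GRMZM2G127798 on it bears the names PGD and pgd2 beside pdh2. Of the 18 tested, the 2 carriers included, limma called 6 higher and 1 lower. This stands beside 13.0% higher and 7.15% lower over all tested genes, and 2 of the 6 are the carriers, whose calls the rule fixes. Of the 4 higher genes outside the members, ndpk1 (GRMZM2G178576), a nucleoside diphosphate kinase, had a mean of 13.1 TPM in the controls and 17.1 TPM in heat, a log2 difference of 0.36 ± 0.09 (SE, limma adjusted p = 0.0154). adk1 (GRMZM2G178192), an adenylate kinase, which interconverts adenine nucleotides, differed by 0.34 ± 0.10 (SE, limma adjusted p = 0.0241) from a control mean of 22.8 TPM. ATP2 (GRMZM2G113408), the beta subunit of the mitochondrial ATP synthase, differed by 0.27 ± 0.09 (SE, limma adjusted p = 0.0465), and PDHE1-B (GRMZM2G043198), a subunit of pyruvate dehydrogenase, by 0.44 ± 0.14 (SE, limma adjusted p = 0.0370). The lower gene was COAC2 (GRMZM2G161299), named as a carrier of coenzyme A, at 7.13 TPM in the controls and 4.72 TPM in heat, a log2 difference of -0.51 ± 0.13 (SE, limma adjusted p = 0.0151). With lane as a covariate the difference rests on heat 3 alone against the controls. It was then 0.44 for ndpk1, 0.28 for adk1, 0.20 for ATP2, 0.46 for PDHE1-B and -0.34 for COAC2, with larger SE (0.13 to 0.20). Leaving out control 1 leaves 0 of the 4 higher calls, at 0.35, 0.35, 0.29 and 0.42 in the same order. So does leaving out control 3 (0.34, 0.31, 0.28 and 0.35). Quantile normalization leaves 0 as well, at lower differences in ndpk1 (0.24), adk1 (0.19) and ATP2 (0.12) and 0.44 in PDHE1-B. COAC2 was not called lower without control 1 (-0.45, limma adjusted p = 0.0764) or without heat 2 (-0.40, limma adjusted p = 0.0565). The same held with no filter (-0.51, limma adjusted p = 0.0550). COAC2 was called lower without control 3 (-0.57, limma adjusted p = 0.0251) and under quantile normalization (-0.56, limma adjusted p = 0.0122). The median log2 difference of the 18 was 0.13.

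The largest differences belonged to members that have no name. AC208031.3_FG002 measured 5.80, 5.28 and 5.76 TPM in the controls and 39.5, 40.5 and 37.4 TPM in heat, a 6.97-fold difference of means, the largest of the 101. It rested on 44 to 61 reads per control library and 267 to 291 per heat library. GRMZM5G805002 measured 12.3, 18.7 and 12.8 TPM in the controls and 76.3, 109.6 and 102.1 TPM in heat, a 6.58-fold difference. GRMZM2G300044 measured 15.2, 14.4 and 15.7 TPM in the controls and 87.3, 108.1 and 99.2 TPM in heat, a 6.50-fold difference. In each of these the lowest heat value was more than 4 times the highest control value.

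GRMZM2G381076 followed with 5.98, 6.38 and 5.83 TPM in the controls and 30.8, 34.0 and 32.4 TPM in heat, and it is the 1 member that matched more than 1 RefSeq gene. GRMZM2G063390 had a 4.55-fold and GRMZM2G057506 a 4.37-fold difference of means. The other members of the leading 10 by lowest heat over highest control value were GRMZM2G159179 (3.58-fold), GRMZM2G016264 (3.44-fold), GRMZM2G374010 (3.21-fold) and GRMZM2G180027 (3.18-fold). Of these 10, GRMZM2G374010 was the most abundant, at 63.0, 63.0 and 52.8 TPM in the controls and 182.5, 215.6 and 175.7 TPM in heat. Only 2 of the 10 matched the RefSeq table at all.

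**Figure D3:**
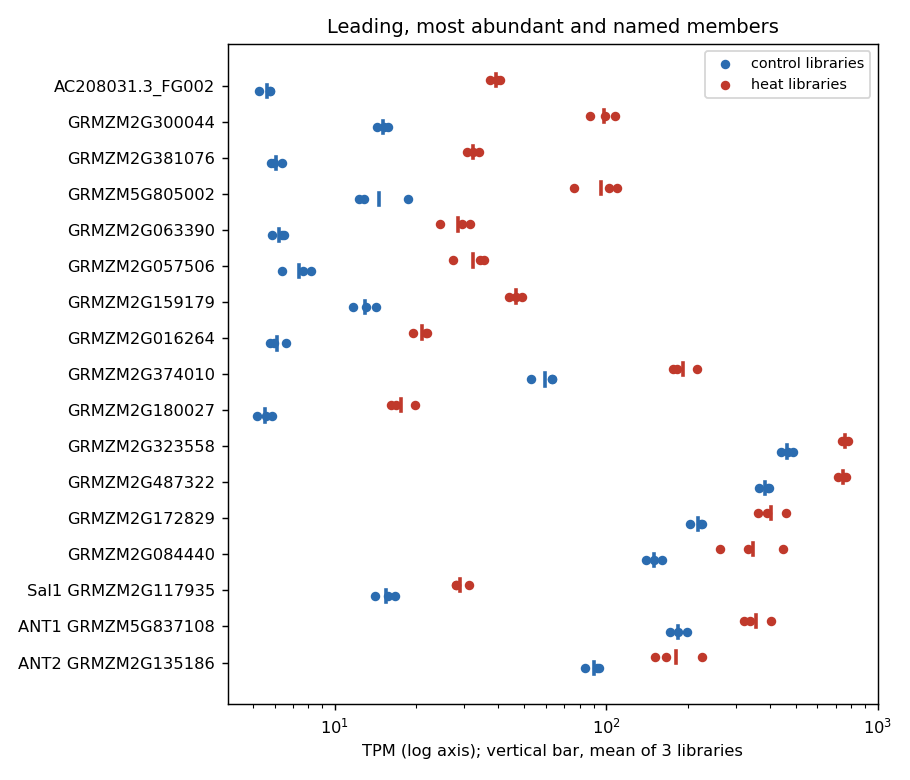
TPM on a log axis in each control library (blue) and heat library (red) for the 10 members with the largest lowest-heat-over-highest-control ratio, the most abundant members, and the 3 named members, with a vertical bar at the mean of 3 libraries. Red and blue points are apart in every line, as the rule requires, by 6.45 times at the top.

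Of the 5 most abundant members, ANT1 among them, 4 differed by less than 2-fold. GRMZM2G323558 had the highest level, at 439.4, 487.7 and 468.3 TPM in the controls and 739.8, 751.0 and 778.9 TPM in heat, a 1.63-fold difference of means. GRMZM2G487322, a short model of 258 bases, measured 393.7, 398.7 and 365.2 TPM in the controls and 715.3, 764.3 and 755.1 TPM in heat, a 1.93-fold difference. GRMZM2G172829 measured 224.7, 203.1 and 223.5 TPM in the controls and 362.7, 460.5 and 392.3 TPM in heat, a 1.87-fold difference. GRMZM2G172829 was highest in heat 2, while GRMZM2G323558 was highest in heat 3. GRMZM2G084440 stood out among the abundant members by its spread, at 160.1, 139.9 and 150.1 TPM in the controls and 262.6, 447.8 and 333.1 TPM in heat (150.0 ± 10.1 and 347.9 ± 93.5 TPM, SD, n = 3 each).

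Spread between replicates varied widely among the members but was in its median near that of other genes. The median coefficient of variation was 7.16% in the controls and 8.17% in heat, beside 6.80% and 7.89% among the 3656 other genes with at least 5 TPM in each control. The rule acts on the same values, so the choice of members shapes this comparison, which is a description. GRMZM2G009806 was the steadiest in the controls, at 103.9, 104.0 and 103.6 TPM, and measured 247.8, 266.3 and 255.0 TPM in heat. GRMZM2G181484 was the steadiest in heat, at 83.4, 84.7 and 83.8 TPM, from 43.3, 40.5 and 52.7 TPM in the controls. At the other end, GRMZM2G104286 varied by 26.2% among the controls (11.1, 7.91 and 13.6 TPM) and measured 36.4, 33.2 and 32.8 TPM in heat. GRMZM2G388703 varied by 31.2% in heat, at 13.3, 23.6 and 25.2 TPM, against 8.65, 8.36 and 5.37 TPM in the controls.

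The fewest reads a member had in any library ran from 19 to 8125, with a median of 394. The part of counting error in the spread between replicates was not tested. The member with fewest was GRMZM5G874201, a model of 225 bases, at 5.27, 5.76 and 6.92 TPM in the controls and 12.5, 17.6 and 14.1 TPM in heat. Members had a median length of 1853 bases, beside 1768 among the other genes. With the 3757 genes split by length into 4 groups of near-equal size, 2.35%, 2.88%, 2.87% and 2.66% were members, from shortest to longest. The share was thus much alike at every length.

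By control level, the share of members lay between 2.34% and 3.54% up to 500 TPM and was 0 above it. Members were 25 of 1001 genes at 5 to 10 TPM, 31 of 910 at 10 to 20 TPM, 22 of 702 at 20 to 50 TPM, 12 of 339 at 50 to 100 TPM, 11 of 471 at 100 to 500 TPM and 0 of 334 above 500 TPM. The median ratio of means among members was 2.42 in the lowest of these bins and 1.96 in the highest that held any. The mirrored thresholds (highest heat value at most the lowest control value divided by 1.5) picked 43 genes, or 1.15% of the 3757. The minimum of 5 TPM stayed on the controls here and was not mirrored. It thus bounds the lower group of raised genes but the higher group of lowered genes. Counts of raised and lowered genes are for that reason not like for like. Of these 43, 17 lay at 5 to 10 TPM, 18 at 10 to 20 TPM and 1 above 100 TPM. Their median control mean was 10.96 TPM, and their summed level in heat fell by 448.2 TPM, beside the members' gain of 4512 TPM. The count of lowered genes depends on single libraries: it is 96 without control 2 and 86 without heat 1, against 106 and 141 raised. Under quantile normalization the counts were close, at 67 raised and 74 lowered. These raised counts leave out the 10 named genes set aside, 6 of which met the thresholds as reported. The lowered counts leave out none, so which count is larger under quantile normalization is not settled.

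**Figure D4:**
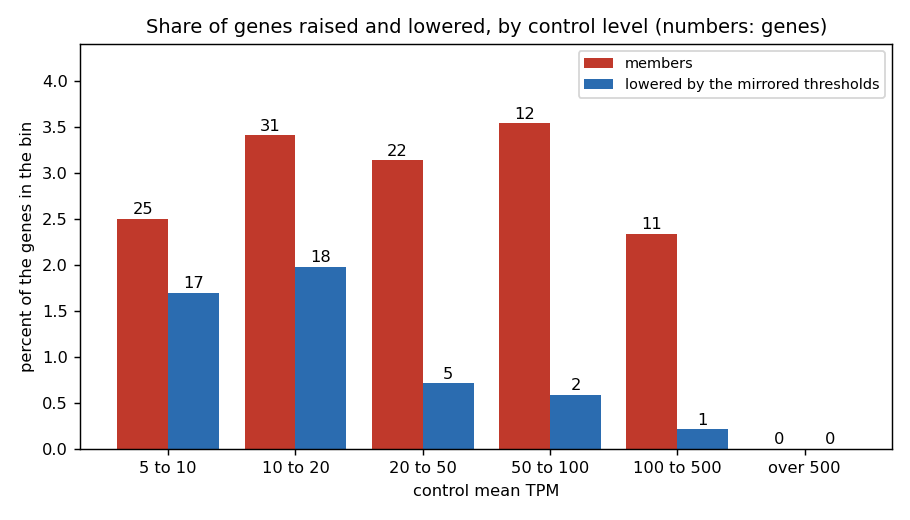
Bars give the percent of genes in each bin of control mean TPM that were members (red) or were lowered by the mirrored thresholds (blue), with the number of genes above each bar. The minimum of 5 TPM was on the controls for both colours, so red and blue are not like for like. Red bars stay between 2.34% and 3.54% up to 500 TPM, blue bars fall from 1.98% at 10 to 20 TPM to 0.212% at 100 to 500 TPM, and both are 0 above 500 TPM.

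The 3 heat libraries did not show the members to the same extent. The median ratio to the gene's control mean was 1.93 in heat 1, 2.22 in heat 2 and 2.05 in heat 3, and 1.03, 0.941 and 1.03 in controls 1 to 3. Among the other 3656 genes it was 1.03, 1.07 and 1.02 in heat libraries 1 to 3. Heat 2 held the highest value of 75 members (74.3%), beside 46.2% of the other genes and 59.3% of the 1022 other genes that limma called higher. Heat 1 held the lowest heat value of 70 members (69.3%), beside 36.3% of the other genes and 47.3% of those 1022. The order heat 1, heat 3, heat 2 was found in 57 members (56.4%) and in 23.8% of the other genes. These shares are descriptions, since genes of 1 library share its depth and scaling.

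**Figure D5:**
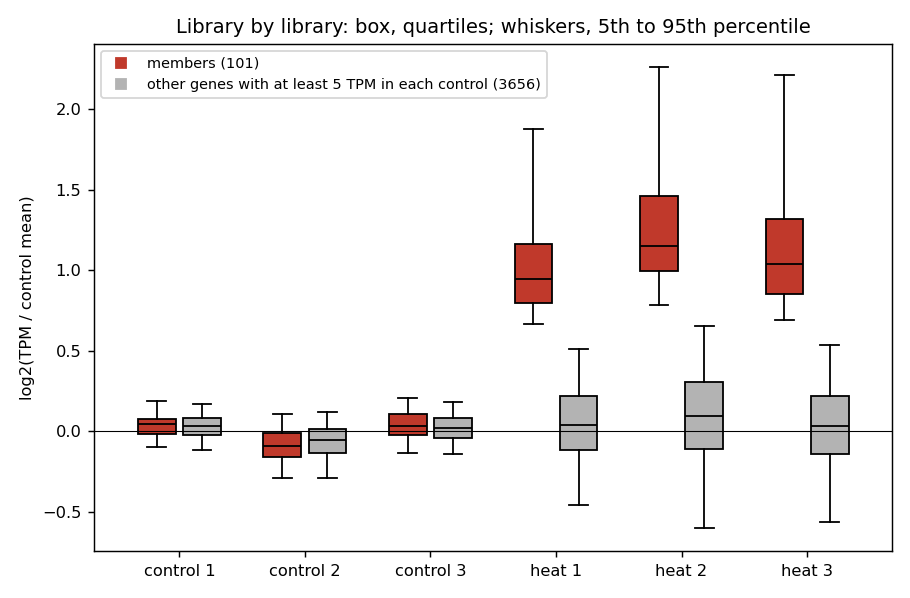
Boxes give the quartiles, and whiskers the 5th to 95th percentile, of log2 TPM over the control mean in each library, for members (red) and for the other genes with at least 5 TPM in each control (grey). The members' median ratio is 1.93 in heat 1, 2.22 in heat 2 and 2.05 in heat 3, while the grey boxes stay centred near 0.

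Heat 2 exceeded heat 1 in 88 of the 101 members, with a median ratio of 1.14 and a range from 0.848 to 1.77, beside a median of 1.03 among the other genes. The difference was widest in GRMZM2G388703 (1.77 times), GRMZM2G084440 (1.71 times), GRMZM2G082376 (1.52 times), ANT2 (1.48 times) and GRMZM2G094563 (1.44 times). It was reversed most in GRMZM2G167613 (0.848 times). Heat 1 and heat 2 were sequenced on the same lanes (1 and 2), and heat 3 shared its lanes (3, 4 and 5) with all controls. On the shared lanes alone, the members' median log2 difference between heat 3 and the controls was 1.01, beside 1.00 with all heat libraries. This rests on 1 heat library and is no check on lane, since the rule required heat 3 to be at least 1.5 times the highest control in each of the 101. The difference between heat 1 and heat 2 lies within a lane set.

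The rule's thresholds cut through a continuous range. Just inside the fold threshold lay AC197150.3_FG003 (1.502 times), GRMZM2G157803 (1.504 times) and GRMZM2G018228 (1.504 times). Just outside lay GRMZM2G702991 (1.499 times), GRMZM2G063693 (1.493 times) and GRMZM2G122631 (1.491 times). By lowest control level, the last inside were GRMZM2G180027 (5.18 TPM), GRMZM2G086116 (5.26 TPM) and GRMZM5G874201 (5.27 TPM). The first outside that passed the fold threshold were AC215723.3_FG001 (4.62 TPM), GRMZM2G071768 (4.62 TPM) and GRMZM2G040803 (4.38 TPM). Without the fold, 1173 of the 3757 genes (31.2%) had all heat values above all control values.

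Few members can be given a function from their names. The RefSeq table matched 59 of the 101 (58.4%), all as protein-coding genes, beside 70.4% of the other genes with at least 5 TPM in each control. Such symbols were found for 2.97% of the members and 9.19% of the 8615 tested genes. The 6 genes that met the thresholds and were set aside all have such symbols. The rule thus lowered the members' share, and the difference is no result about the members. None of 13 lists of genes by name holds a member, which the rule fixes in part, since it set aside genes of the jasmonate, sugar and RNA lists that met the thresholds. Few listed genes had 5 TPM in each control: 1 heat shock, 3 MYB-type and 4 ER folding genes, and at most 23 (RNA list). Over all genes at that level 2.85% met both thresholds. The absence of members from lists this small is no result about their genes.

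The counts are to be read against the 13.0% called higher and 7.15% called lower over all tested genes, and at these list sizes 1 gene moves a share by several percentage points. The heat shock list had 7 tested genes, of which limma called 3 higher and 2 lower. Its most abundant gene, hsp101 (GRMZM2G360681), a chaperone that frees aggregated proteins, had a mean of 112.0 ± 6.74 TPM in the controls and 135.8 ± 4.45 TPM in heat (SD, n = 3 each), a log2 difference of 0.28 (limma adjusted p = 0.0156). The jasmonate list had 7 of 18 genes called higher and 0 lower, and 4 of its genes are the TIFY genes that met the thresholds and were set aside. TIFY genes of the JAZ type encode repressors of jasmonate responses. The sugar and energy list had 6 of 25 higher and 0 lower, and ivr2, an invertase that cleaves sucrose, was set aside from it. Its most abundant gene, ald1 (GRMZM2G057823), a fructose-bisphosphate aldolase of glycolysis, had a mean of 354.6 ± 14.4 TPM in the controls and 496.6 ± 13.6 TPM in heat (SD, n = 3 each), a log2 difference of 0.49 (limma adjusted p = 0.000136).

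Among regulators and metabolism, the counts were 4 of 10 higher and 0 lower for MYB-type regulators, 9 of 44 higher and 4 lower for other regulators, 4 of 13 higher and 1 lower for transport, and 6 of 18 higher and 1 lower for secondary metabolism and redox. Ubiquitin and protein turnover had 3 of 9 higher and 0 lower, RNA processing and translation without the TIFY names had 4 of 33 higher and 1 lower, and ER folding had 2 of 12 higher and 0 lower. Signalling kinases and phosphatases had 4 of 26 higher and 6 lower, cell wall and expansion 3 of 14 higher and 4 lower, and lipid genes 1 of 8 higher and 2 lower. A gene can stand on more than 1 list, and eIF-4A, an RNA helicase of translation initiation, met the thresholds from the RNA list and was set aside.

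Neighbouring genes in the RefSeq order were compared, since position was not used to choose members. Of 58 members placed there one to one, 58 flanking gene models were found in the table of TPM values, and none of these is a member. Of 26 flanking genes that could be tested, limma called 3 higher (11.5%) and 2 lower (7.69%), beside 13.0% and 7.15% of all tested genes. Their median log2 difference was 0.16, beside 0.04 over all tested genes. The 3 higher were GRMZM5G807639 (22.7 TPM in the controls, 30.8 TPM in heat), GRMZM2G085747 (52.9 and 66.2 TPM) and GRMZM5G814159 (2.56 and 3.75 TPM). Their log2 differences were 0.43, 0.32 and 0.42, with limma adjusted p of 0.00331, 0.0313 and 0.0248. The count is 1 without control 1, heat 2 or heat 3. A count with lane as a covariate is not given, since it would rest on heat 3 alone against the controls.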

How the data were processed

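RNA of mature pollen, made into strand-marking mRNA libraries per the labels' protocols, was compared between 3 control and 3 heat libraries. The deposited table gives TPM, which the authors computed. The submitters' processing notes name STAR 2.5.2a, Trimmomatic 0.35, featureCounts, FastQC, DESeq2 and build B73 RefGen_v3; their roles, the strand setting and the handling of multi-mapped reads are not given in the sources used here. The lanes came from the sample sheets the authors deposited.

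The members and lists were chosen with earlier results of these data known. The background fit was limma 3.58.1 in R 4.3.3 on log2(TPM + 1) with an intensity trend, two-sided, Benjamini-Hochberg adjusted, over the 8615 genes that reached 1 TPM in 3 or more of the 6 libraries; it was tested on simulated data. Fold changes on that scale understate differences of low genes. Whole reads and lengths were recovered from TPM ratios for all 24654 gene models above 0 within 0.01 reads, with a common divisor put back for 445; a divisor left in is possible for others, and reads carry no molecular identifiers. No pair of libraries agreed within sampling noise.

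Genes named in the text were the members with names, the 10 with the largest ratio of lowest heat to highest control value, the 5 most abundant, the 3 on each side of each threshold, and the most abundant of a list; those named for spread, for their heat 2 over heat 1 ratio, for gain or as neighbours were chosen after their values were seen. Names and gene order came from the RefSeq table of a later B73 assembly (release 5.0), whose coordinates were not used. No sequences were used. Alternatives changed the thresholds, scaling, pseudocount, filter, covariates and libraries.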

Additional observations from a re-analysis of the deposited data

How the results depend on the processing

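The number of members, 101 as reported, was 269 at a looser fold threshold (5 to 4), 28 at a fold of 2, 185 at a minimum of 1 TPM, 67 under quantile normalization and 156 with heat replicate 3 alone against the controls, and 106 to 141 with a library left out, which only loosens the rule. It was 69 at a minimum of 10 TPM, 91 with TPM rescaled by median ratios (90 of them members) and 83 without the 100 most abundant genes (all 83 members). All 67 under quantile normalization are members. Lowered genes, 43 as reported, were 74 under quantile normalization, 104 with heat replicate 3 alone, and 46 to 96 with a library left out, the highest without control 2. The members' median log2 difference, 1.00, was 0.89 under quantile normalization and 0.91 to 1.06 under the other settings. Of 264 recomputed values of 22 named members, 233 moved by less than 1 SD between replicates, 31 by more, and 0 changed sign.

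Genes called higher, 1123, were 742 with no filter, 435 with lane as a covariate and 813 to 1138 with a library left out. Genes called lower, 616, were 342 with a filter of 5 TPM, 957 under quantile normalization, 219 with lane as a covariate, and 374 (without control 1) to 682 (without heat 1) with a library left out. The split between higher and lower was 1043 and 722 with TPM rescaled by median ratios, 904 and 803 without the 100 most abundant genes, and 869 and 957 under quantile normalization. A replicate block gave 1118 higher and 667 lower. Same-numbered libraries had correlations of deviations of 0.119, 0.13 and -0.05. These show no clear pairing by number and do not settle whether libraries were paired. The counts with lane as a covariate rest on heat 3 alone against the controls, so no conclusion is drawn from them. The cause of the shifts between settings was not tested. Alternatives for the lowered and neighbouring genes and for those with mitochondrial names were added after seeing the data. The planned counts of nearest paralogs and of promoter motifs were not run, since no sequence was used here. Members resting on few reads, 19 at the fewest, are limited by depth.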
